A study of Homo sapiens with 4 samples.

Results

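The genes described are 49 genes of autophagy and of the mTOR pathway, taken by their symbols from the 23228 gene symbols counted in the study. The members are set by name, and the rule uses no measured value, but the list was drawn up with earlier results of these data known. All 49 were found, 48 by their current symbol and ATG101 by its older symbol C12orf44, and all 49 were among the 14473 genes that passed the filter on low counts and were tested. RNA was sequenced from SKOV3-ALDH+ ovarian cancer stem cells (OCSCs) after 24 h with vehicle (2 samples) or with 5 µM LY500307 (2 samples), so the comparison asks how the agonist altered transcription in these cells. SKOV3 is an established line of human ovarian cancer cells. In both groups, cells with aldehyde dehydrogenase activity had been sorted with the ALDEFLUOR kit and grown as spheroids in serum-free medium with EGF, bFGF, hydrocortisone and insulin. LY500307 is an agonist of estrogen receptor beta (ERβ). No transgene, knockdown or other cell line entered these 4 samples. The labels do not say whether samples of a group came from separate cultures, so p-values measure only the spread between these samples. In edgeR that spread is estimated for each gene partly from all genes tested, and is pooled over both groups.

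mTOR is a kinase that joins growth factor and amino acid signals to cell growth. It works in 2 complexes, mTORC1 with raptor (RPTOR) and mTORC2 with rictor (RICTOR), and mTORC1 is switched on at the lysosome by RHEB and the Rag GTPases and held back by the TSC and GATOR1 complexes. When mTORC1 is inactive, the ULK kinase complex is released from inhibition and, with the class III PI3K complex, starts an autophagosome, on which small ubiquitin-like proteins of the Atg8 family (LC3 and GABARAP proteins) are coupled to lipid and gather cargo through receptors such as p62 (SQSTM1). Much of this control lies in phosphorylation and protein turnover, which RNA levels do not measure.

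The vehicle samples, grown in the same medium, are the background for every value. Between 28841701 and 34943882 reads per sample were counted on genes. The LY500307 samples differed from each other more than the vehicle samples did, with a chi-square per degree of freedom between gene counts of 45.3 against 5.26. Reads on no gene were 29.6% and 30.8% of those in the vehicle samples, 28.4% in LY500307 sample 1 and 25.5% in LY500307 sample 2, leaving out reads that aligned to several places. The latter numbered 70.2 and 73.2 per 100 gene reads in the vehicle samples, 70.3 in LY500307 sample 1 and 64.6 in LY500307 sample 2. Of the markers set for SKOV3 and epithelial identity, EPCAM stood at 194 to 240 CPM (reads on the gene as a share of the library, scaled by TMM) and ERBB2 at 48.7 to 59.4 CPM. KRT19 and CDH1 were at or near 0 in all 4 samples and KRT8 was at 0.32 to 1.02 CPM, but KRT18 was at 23.5 to 31.8 CPM. MUC1 met the criteria used below and was lower with LY500307, at 8.74 and 8.66 CPM with vehicle and 6.66 and 4.92 CPM with LY500307. SKOV3 cells are known for high ERBB2 and for keratins, and KRT18 was detected. The low ERBB2, KRT8 and KRT19 values still leave a question about the SKOV3 label that was not tested. Every result carries the label as given. Of the markers of other cell types, the leukocyte genes PTPRC and CD3E and the endothelial genes PECAM1 and CDH5 were near 0, but the endothelial gene KDR was at 133 to 151 CPM and the leukocyte gene CD68 at 11.5 to 17.9 CPM. The 5 leukocyte genes summed to 11.9 to 18.5 CPM. Of the fibroblast genes, COL1A1 and COL3A1 were at 182 to 230 and 440 to 517 CPM. The others on that list were lower, with LUM at 15.1 to 17.3, DCN at 7.58 to 9.61 and PDGFRB at 1.41 to 2.54 CPM. The 7 proliferation genes summed to 2121 and 2051 CPM in the vehicle samples and to 1830 and 1738 CPM in the LY500307 samples. Not all of them were lower, since CCNB1 and CDK1 had log2 fold changes of 0.16 and -0.01. The rest ran from -0.42 (MKI67) to -0.18 (AURKA). The part of this difference in the results below was not tested. In such bulk samples, fewer cells of a kind and less RNA per cell cannot be told apart.

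Promoter letters are shown because ERα and ERβ bind estrogen response elements (EREs), and TFEB, the transcription factor that mTORC1 holds in the cytoplasm, binds E-box letters in genes of lysosomes and autophagy. The RefSeq promoter table (GRCh38.p14), which covers 250 bases before to 50 bases after each start, held 40 of the 49 genes. MLST8, AKT1S1, DEPTOR, RRAGA, RRAGD, RB1CC1, UVRAG, ATG4D and MAP1LC3A had no entry. The E-box CACGTG was found in 6 of the 40 promoters (15% against 7.43% of all 27305 promoters): TSC2, RRAGB, RRAGC, NPRL3, ATG14 and ATG3. Its longer form TCACGTGA, whose matches all contain CACGTG, was found in TSC2, RRAGB and ATG3 (7.5% against 1.04%). A single arm of the ERE, AGGTCA, searched like the others on both strands, was found in BECN1, PIK3R4 and SQSTM1 (7.5% against 13.9%). The full ERE, GGTCA and TGACC held apart by 3 unspecified bases, was found in 0 of the 40 (0.0659% of all promoters). The following windows, written 5′ to 3′ on the strand of the gene, carry the match in capitals. RRAGB holds 3 E-boxes, and the one farthest upstream is shown. Its TCACGTGA begins at -26 from the start and is not in the window. The E-boxes shown lie at chr16:2047851-2047896 (plus strand) for TSC2, chrX:55717614-55717659 (plus strand) for RRAGB and chr1:38859859-38859904 (minus strand) for RRAGC. The ERE arms lie at chr17:42823905-42823950 (minus strand) for BECN1 and chr5:179806169-179806214 (plus strand) for SQSTM1, where the arm reads in reverse as TGACCT.
TSC2: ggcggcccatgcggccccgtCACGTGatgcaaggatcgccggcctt
RRAGB: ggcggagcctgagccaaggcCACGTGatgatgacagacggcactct
RRAGC: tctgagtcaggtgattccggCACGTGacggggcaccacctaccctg
BECN1: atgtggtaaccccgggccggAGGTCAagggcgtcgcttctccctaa
SQSTM1: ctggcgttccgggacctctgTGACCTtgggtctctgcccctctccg
A match is a description of letters and not of a bound site. The log2 fold changes of these 5 genes, given with their roles below, lay between -0.07 and 0.17. None had an unadjusted p below 0.05, against 11.6% of all genes tested.

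Among the 49 genes, 1 gene, MAP1LC3A, was higher with LY500307 by the study's criteria, and the estimates of the other 48 were within 0.5 of 0 on the log2 scale. With edgeR's quasi-likelihood test and the criteria the study used (an unadjusted p below 0.05 together with a log2 fold change over 0.5 in size), 1 of 49 genes met the criteria (2.04%), against 4.62% of all genes tested. That 1 gene was higher, as were 2.76% of all genes tested, and 0 of the 49 were lower (1.86% of all genes tested). With no limit on the fold change, 5 of 49 had an unadjusted p below 0.05 (10.2% against 11.6%): MAP1LC3A, RPTOR, ATG2A and GABARAP were higher and RICTOR was lower with LY500307. On counts this small, these shares were near the background. At an unadjusted p below 0.05, the share of higher genes was 8.16%, against 6.09% of all genes tested. Fits with 1 sample left out hold a single sample in 1 group and measure no spread there, so their p-values are not counted. Adjusted over all 14473 genes, 0 of the 49 had a p below 0.05, with 0.422 the lowest of their adjusted p-values in edgeR. DESeq2 also gave 0 of the 49, with 4 at an unadjusted p below 0.05. An exact permutation test of 1 gene with 2 samples against 2 cannot give a two-sided p below 0.33.

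Estimates were positive for 30 genes and negative for 19, with a median of 0.08 against a median of 0.00 over all genes tested. That median was 0.03 without LY500307 sample 2, 0.04 without vehicle sample 2 and 0.12 without LY500307 sample 1. Both LY500307 samples lay on the same side of both vehicle samples for 25 of the 49 (51.0% against 48.6% of all genes tested). They were higher for 16 (32.7% against 24.2%) and lower for 9 (18.4% against 24.4%). The 95% interval of the log2 fold change lay wholly within 0.5 of 0 for 33 of the 49 genes (67.3%), against 43.1% of all genes tested. Interval width depends in part on read count, and these shares were not matched for read count. For the other 16 genes, the interval reached past 0.5 in at least 1 direction.

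**Figure D1:**
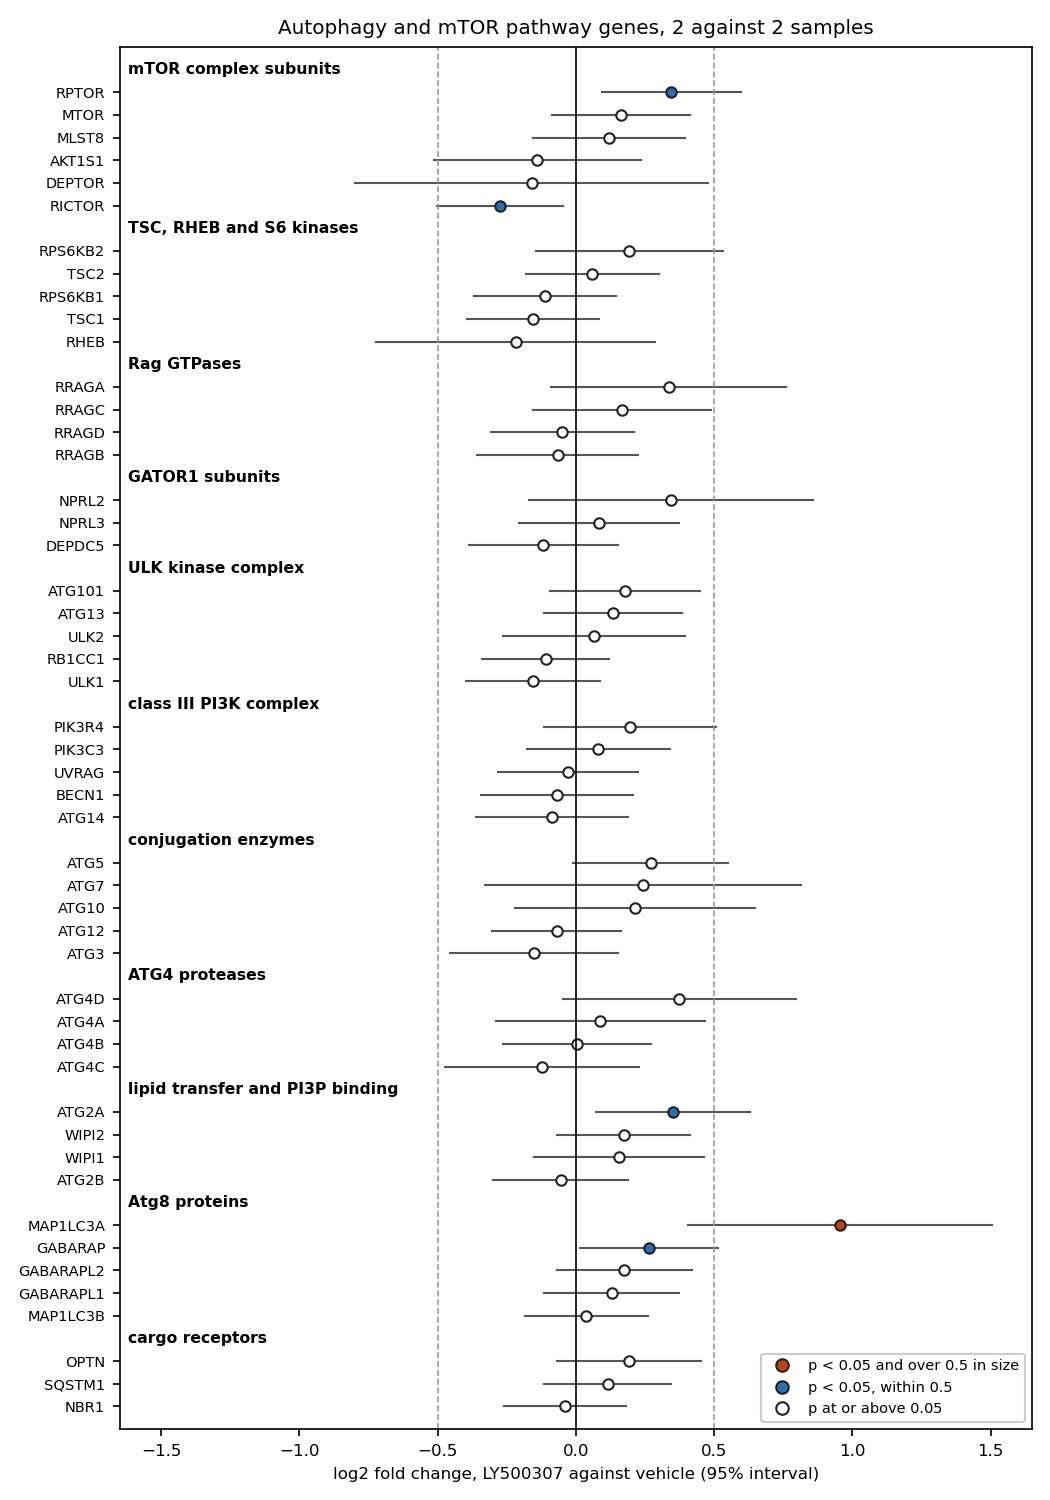
Log2 fold change of each of the 49 genes with LY500307 against vehicle, grouped by role. Points are edgeR estimates, bars are 95% intervals and dashed lines mark 0.5 and -0.5. MAP1LC3A, at 0.96, is the 1 gene past the line with an unadjusted p below 0.05.

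The Atg8 family, the proteins that coat the autophagosome membrane, held the largest change. MAP1LC3A, which encodes LC3A, lies at chr20:33134658-33148149 on the plus strand of GRCh37 (hg19, the build of the counts). It was counted by 112 and 120 reads in the vehicle samples and by 222 and 293 reads in the LY500307 samples. On the CPM scale these were 3.74 and 4.22 with vehicle and 6.40 and 9.06 with LY500307. Both LY500307 samples were therefore above both vehicle samples, and LY500307 sample 2 was the higher. The log2 fold change was 0.96 (standard error, SE, 0.24, 95% interval 0.41 to 1.51), with an unadjusted p of 0.004 and an edgeR adjusted p of 0.422. MAP1LC3A was also among the least abundant of the 49 genes, 46th by RPKM (CPM per kilobase of the canonical transcript) in the vehicle samples. Its mean level was 4.13 RPKM with vehicle and 8.02 RPKM with LY500307.

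The other 4 Atg8 genes were far more abundant and their log2 fold changes were smaller. GABARAP, which gives its name to the other branch of the family and lies at chr17:7143327-7145768 on the minus strand, was at 97.5 and 113 CPM with vehicle and at 126 and 127 CPM with LY500307. Its groups did not overlap, and its log2 fold change was 0.26 (SE 0.11, unadjusted p of 0.040, edgeR adjusted p of 0.428). The unadjusted p was 0.059 with the GC correction and 0.060 with DESeq2. GABARAPL2 was at 72.2 and 68.3 CPM with vehicle and at 75.8 and 82.9 CPM with LY500307, a log2 fold change of 0.18 (SE 0.11, edgeR adjusted p of 0.496). MAP1LC3B, whose product LC3B is the usual protein marker of autophagosomes, was at 95.3 and 90.7 CPM with vehicle and at 95.1 and 95.8 CPM with LY500307. Its values overlapped between groups, the log2 fold change was 0.04 (SE 0.10) and the 95% interval was -0.19 to 0.26. GABARAPL1 had a log2 fold change of 0.13. All 5 estimates of the family were positive, with a median of 0.18, and for 4 of the 5, all but MAP1LC3B, both LY500307 samples were above both vehicle samples, as for 24.2% of all genes tested. With a correction for GC content, the estimate for MAP1LC3B was -0.04. MAP1LC3B and GABARAPL1 have near-identical gene copies in the genome, with which reads could be shared, so their counts are less certain.

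Because MAP1LC3A was so low, the makeup of the family's reads was little altered. Of the reads on the 5 genes, MAP1LC3A took 1.17% (Wilson 95% interval 0.97 to 1.40) and 1.28% (1.08 to 1.53) in the vehicle samples and 1.78% (1.56 to 2.03) and 2.43% (2.17 to 2.72) in the LY500307 samples. GABARAP took the largest share in each sample, narrowly so in vehicle sample 1, with 30.4% and 34.3% with vehicle and 35.1% and 34.0% with LY500307. MAP1LC3B took 29.8% and 27.6% with vehicle and 26.5% and 25.7% with LY500307, so that its share was lower in both LY500307 samples while its CPM was not. The intervals cover counting error only.

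**Figure D2:**
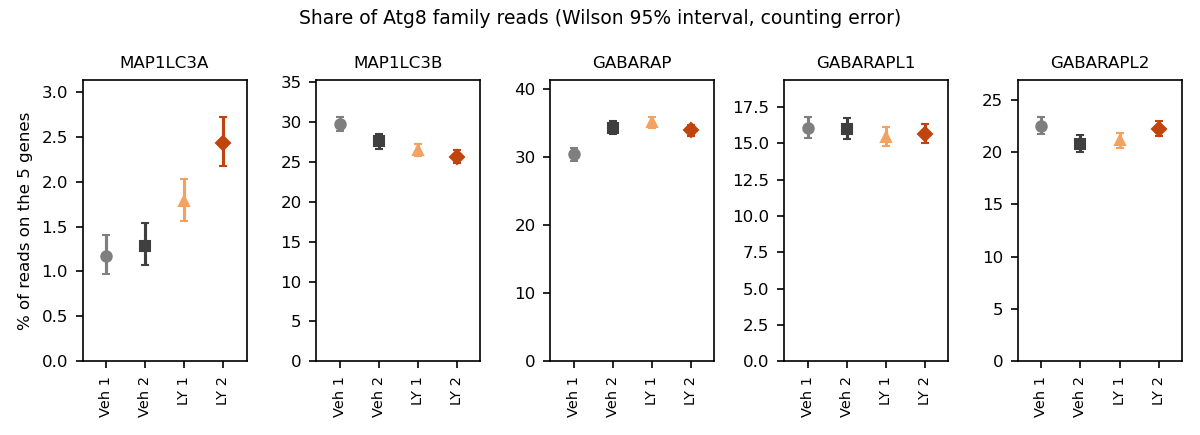
Share of the reads of the 5 Atg8 family genes taken by each gene in each sample, in percent, with Wilson 95% intervals for counting error. Each panel has its own axis, which starts at 0, and MAP1LC3A, at 1.17% to 2.43%, is the smallest share in every sample.

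Among the 6 subunits of the mTOR complexes, the genes for raptor and rictor differed in opposite directions. RPTOR, whose product recruits substrates to mTORC1 (chr17:78518619-78940171, plus strand), was at 64.6 and 59.3 CPM with vehicle and at 75.1 and 82.5 CPM with LY500307. The log2 fold change was 0.35 (SE 0.11, 95% interval 0.09 to 0.60), with an unadjusted p of 0.014 and an edgeR adjusted p of 0.422. RICTOR, whose product defines mTORC2 (chr5:38938022-39074504, minus strand), was at 99.6 and 96.1 CPM with vehicle and at 83.2 and 78.4 CPM with LY500307. Its log2 fold change was -0.28 (SE 0.10, 95% interval -0.50 to -0.05), with an unadjusted p of 0.024 and an edgeR adjusted p of 0.422. Neither gene's groups overlapped, and neither change reached 0.5. Of the reads on the 2 genes, a share computed after the values were seen, RPTOR took 39.4% and 38.2% with vehicle and 47.4% and 51.3% with LY500307. RPTOR has an exonic GC content of 57.2% and RICTOR of 36.2%, and with a correction for GC content RICTOR had a log2 fold change of -0.10 (unadjusted p of 0.30) and RPTOR of 0.27 (unadjusted p of 0.034).

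MTOR itself, the kinase of both complexes, was at 132 and 128 CPM with vehicle and at 135 and 156 CPM with LY500307. Both LY500307 samples were above both vehicle samples, sample 1 only narrowly, and the log2 fold change was 0.16 (SE 0.11, 95% interval -0.08 to 0.41). DEPTOR, an inhibitory subunit, was the least abundant of the 49 genes at 0.98 RPKM with vehicle, and its 80 and 67 reads with vehicle and 82 and 69 reads with LY500307 bounded the change only loosely (log2 fold change -0.16, SE 0.28). MLST8, a subunit of both complexes, and AKT1S1, the mTORC1 inhibitor PRAS40, had log2 fold changes of 0.12 and -0.14. AKT1S1 was the second most abundant of the 49 genes by RPKM, and it was lower in LY500307 sample 2 (114 CPM) than in the other 3 samples (150 to 163 CPM).

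Upstream and downstream of mTORC1, no gene of the TSC, RHEB and S6 kinase group had an unadjusted p below 0.05, against 11.6% of all genes tested. The 5 log2 fold changes ran from -0.22 (RHEB, the GTPase that activates mTORC1) to 0.19 (RPS6KB2, an S6 kinase), with a median of -0.11. The TSC subunits, whose complex inactivates RHEB, were at -0.15 for TSC1 and 0.06 for TSC2. RHEB, named here after its values were seen, was at 47.2 and 59.5 CPM with vehicle and at 56.6 and 35.1 CPM with LY500307, so that only LY500307 sample 2 lay outside the vehicle range. RPS6KB1, the main S6 kinase gene, took 77.3% and 73.8% of the reads of the S6 kinase pair with vehicle and 71.3% and 71.5% with LY500307.

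The Rag GTPases carry the amino acid signal to the lysosome as pairs of RagA or RagB with RagC or RagD. RRAGA was at 39.2 and 40.3 CPM with vehicle and at 40.1 and 60.3 CPM with LY500307, a log2 fold change of 0.34 (SE 0.18, edgeR adjusted p of 0.469). Its higher mean rested on LY500307 sample 2, since sample 1 lay within the vehicle range. RRAGB, RRAGC and RRAGD had log2 fold changes of -0.07, 0.17 and -0.05, and RRAGC took 31.6% of the RagC and RagD reads in both vehicle samples and 33.2% and 36.6% in the LY500307 samples. GATOR1 switches the Rag GTPases off. Of its subunits, NPRL2 was at 12.4 and 9.25 CPM with vehicle and at 11.4 and 16.1 CPM with LY500307, a log2 fold change of 0.34 (SE 0.22, edgeR adjusted p of 0.524), and NPRL3 and DEPDC5 were at 0.08 and -0.12.

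The ULK kinase complex is phosphorylated by mTORC1 and begins autophagy. The intervals of all 5 of its genes lay within 0.5 of 0, as for 43.1% of all genes tested. ULK1, the kinase itself, was at 78.6 and 77.5 CPM with vehicle and at 66.7 and 73.6 CPM with LY500307. The values with LY500307 were both below those with vehicle, and the log2 fold change was -0.15 (SE 0.10, edgeR adjusted p of 0.536), which became -0.28 with the GC correction (unadjusted p of 0.018). ULK2 was at 0.07, and ULK1 took 71.4% and 72.7% of the ULK1 and ULK2 reads with vehicle and 70.0% and 67.7% with LY500307. The scaffold genes RB1CC1 (FIP200), ATG13 and ATG101 were at -0.11, 0.13 and 0.18.

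The class III PI3K complex makes the lipid PI3P that marks the forming autophagosome, and its genes had a median log2 fold change of -0.03. BECN1, its regulatory subunit beclin 1, was at 92.8 and 93.2 CPM with vehicle and at 97.4 and 79.9 CPM with LY500307. The LY500307 samples lay on either side of the vehicle samples, and the log2 fold change was -0.07 (SE 0.12). Its sign followed the sample used, at 0.07 with LY500307 sample 1 alone and -0.22 with sample 2 alone against both vehicle samples. PIK3C3, the lipid kinase VPS34, was at 0.08, its partner PIK3R4 at 0.20, ATG14 at -0.09 and UVRAG at -0.03.

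ATG2A and the WIPI genes act at the next step, in which WIPI proteins bind PI3P and ATG2 proteins carry lipid into the growing membrane. ATG2A (chr11:64662018-64684681, minus strand) was at 108 and 107 CPM with vehicle and at 123 and 152 CPM with LY500307. Both LY500307 samples were above both vehicle samples, and the log2 fold change was 0.35 (SE 0.12, 95% interval 0.07 to 0.63, unadjusted p of 0.020, edgeR adjusted p of 0.422). ATG2B, which shares its function, was at -0.06, so that ATG2A took 65.4% and 66.03% of the reads of the ATG2A and ATG2B pair with vehicle and 70.1% and 73.2% with LY500307. ATG2A has an exonic GC content of 63.2% and ATG2B of 42.2%, and with the GC correction the log2 fold change of ATG2A was 0.22 (unadjusted p of 0.056). WIPI2 was at 91.2 and 91.9 CPM with vehicle and at 97.0 and 109 CPM with LY500307 (log2 fold change 0.17, SE 0.10, edgeR adjusted p of 0.498), and WIPI1 was at 0.16.

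The conjugation enzymes couple Atg8 proteins to lipid, and the ATG4 proteases prime them and cut them free again. ATG5, part of the conjugate that directs lipidation, was at 35.9 and 37.1 CPM with vehicle and at 41.2 and 46.8 CPM with LY500307. Its groups did not overlap, and the log2 fold change was 0.27 (SE 0.12, unadjusted p of 0.056, edgeR adjusted p of 0.431). It was 0.36 with the GC correction (unadjusted p of 0.023), and its exonic GC content is 40.5%. ATG7, the activating enzyme of both conjugation systems, was at 10.7 and 11.9 CPM with vehicle and at 9.94 and 16.9 CPM with LY500307. The LY500307 samples again lay on either side of the vehicle samples, and the log2 fold change of 0.24 (SE 0.25) was -0.18 with LY500307 sample 1 alone and 0.58 with sample 2 alone. ATG10, ATG12 and ATG3 were at 0.21, -0.07 and -0.15. Of the proteases, ATG4D was at 14.3 and 13.3 CPM with vehicle and at 15.2 and 20.6 CPM with LY500307 (log2 fold change 0.37, SE 0.18, edgeR adjusted p of 0.444), while ATG4A, ATG4B and ATG4C were at 0.09, 0.00 and -0.12.

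Of the cargo receptors, which bind both ubiquitin and Atg8 proteins, SQSTM1 was the most abundant of the 49 genes, at 95.5 RPKM with vehicle. It was at 275 and 268 CPM with vehicle and at 286 and 302 CPM with LY500307, and both LY500307 samples were above both vehicle samples. The log2 fold change was 0.11 (SE 0.10, 95% interval -0.12 to 0.35), and 0.03 with the GC correction. OPTN was at 49.4 and 52.2 CPM with vehicle and at 61.1 and 54.9 CPM with LY500307 (log2 fold change 0.19, SE 0.11, edgeR adjusted p of 0.491), and NBR1 was at -0.04. All 3 receptors had intervals within 0.5 of 0. The strand setting of the counting is not given in the sources used here, and 27 of the 49 genes have exons that overlap a gene on the other strand, 9 of them over more than 10% of their exonic length. The 9 include SQSTM1 (22.4%), ATG7 (18.1%), BECN1 (17.1%), ATG4D (14.7%) and GABARAP (12.8%). Some reads of those genes may belong to a neighbour, or may have been left out as falling on more than 1 gene. The overlaps are those of GENCODE, which need not be the annotation used for the counts.

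**Figure D3:**
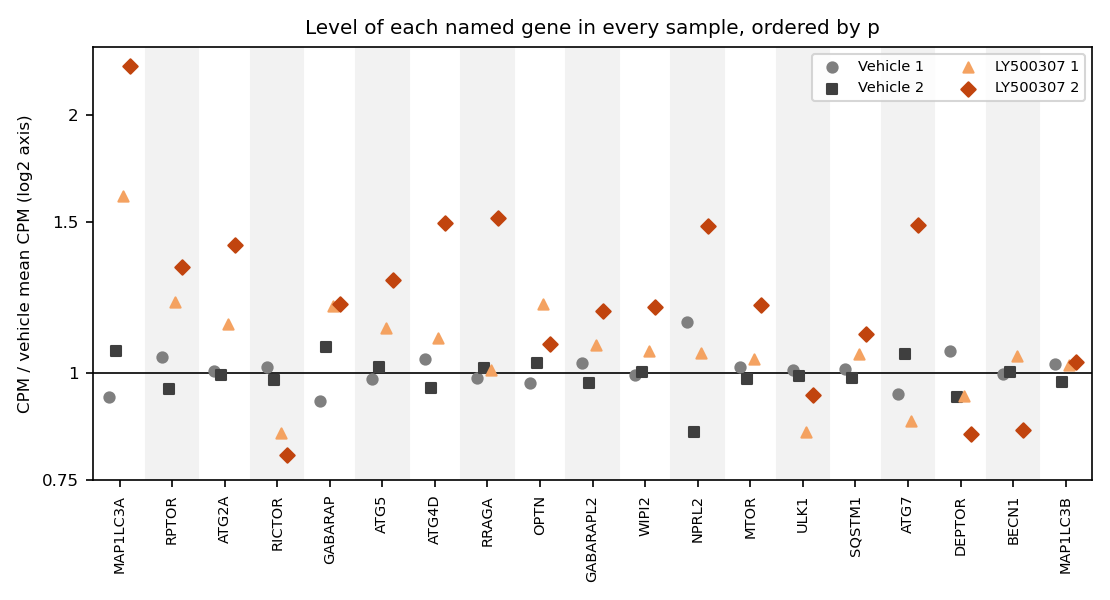
CPM of each gene described in full, divided by the mean CPM of the 2 vehicle samples, on a log2 axis. Points are single samples, and genes are ordered by unadjusted p. MAP1LC3A stands above 1.5 in both LY500307 samples, while ATG7 and BECN1 have LY500307 samples on either side of the vehicle samples.

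Much of the movement came from 1 of the LY500307 samples. With sample 1 against both vehicle samples, MAP1LC3A, at 0.69, was the 1 gene of the 49 past 0.5 (2.04%, against 10.1% of all genes). With sample 2 against both, 6 genes were past 0.5 (12.2%, against 22.0% of all genes): MAP1LC3A at 1.19, RRAGA at 0.60, ATG4D, ATG7 and NPRL2 at 0.58, 0.58 and 0.57, and RHEB at -0.60. Changes were larger in size in sample 2 for 39 of the 49 genes (79.6%, against 69.7% of all genes), and the SD of the log2 fold changes over the 49 genes was 0.16 in sample 1 and 0.31 in sample 2. Both comparisons use the same vehicle samples.

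**Figure D4:**
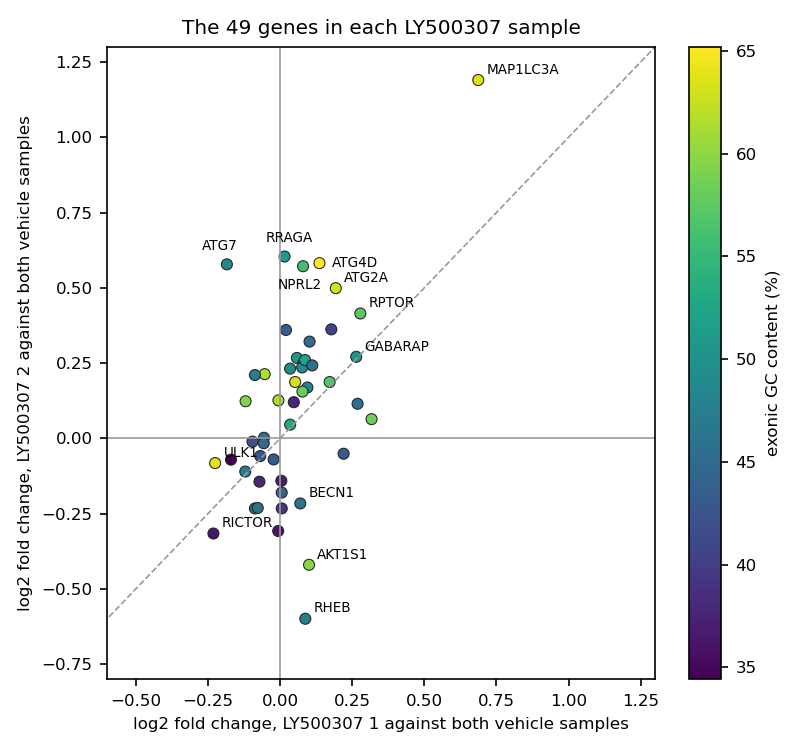
Log2 fold change of the 49 genes in LY500307 sample 1 (horizontal axis) and LY500307 sample 2 (vertical axis), each against the same 2 vehicle samples and coloured by exonic GC content in percent. The dashed line marks equal change. MAP1LC3A is at 0.69 and 1.19, and RRAGA, ATG4D, ATG7, NPRL2 and RHEB lie past 0.5 in sample 2 alone.

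The log2 fold changes moved with base composition. Over the 49 genes, which share the same 4 libraries, they correlated with exonic GC content at a Pearson r of 0.48 and a Spearman rho of 0.43, against 0.27 and 0.33 over 13782 genes with a known GC content. Among the 19 genes with a GC content of at least 50%, 17 were positive and the median was 0.17, and among the 30 genes below 50%, 13 were positive and the median was -0.04. With the GC correction, the correlation over the 49 genes was 0.07 (rho -0.01) and these medians were 0.11 and 0.05. MAP1LC3A, with a GC content of 63.5%, had a log2 fold change of 0.82 with the correction (unadjusted p of 0.006). The part of base composition in the other results was not tested further.

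The wider pathway was examined in 3 further lists, also drawn up by name with earlier results of these data known. Of 53 other mTOR pathway genes, 52 were tested and 3 met the criteria (5.77%, against 4.62% of all genes tested). All 3 were higher with LY500307, as were 2.76% of all genes tested, and the median log2 fold change was 0.08. SESN2, a stress-induced inhibitor of mTORC1 that binds GATOR2, was at 70.5 and 70.1 CPM with vehicle and at 95.6 and 127 CPM with LY500307. Its groups were well apart, with a log2 fold change of 0.66 (SE 0.14, unadjusted p of 0.002, edgeR adjusted p of 0.422). CASTOR1, the arginine sensor that also acts on GATOR2, was counted under the older symbol GATSL3 and was at 2.94 and 3.31 CPM with vehicle and at 4.61 and 6.09 CPM with LY500307 (log2 fold change 0.78, SE 0.24, edgeR adjusted p of 0.422). LAMTOR4, a subunit of the Ragulator complex that anchors the Rag GTPases to the lysosome, was at 41.6 and 40.4 CPM with vehicle and at 48.6 and 69.2 CPM with LY500307 (log2 fold change 0.52, SE 0.17, edgeR adjusted p of 0.422). The 9 genes of mTORC2 and AKT had no unadjusted p below 0.05 (11.6% of all genes tested), and 7 of the 9 were negative with a median of -0.03. A further 10 genes were tested as substrates of mTORC1 or genes further downstream of it, TFEB among them. They likewise had none below 0.05, with a median of 0.02.

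Of 42 other autophagy genes, 40 were tested, 0 met the criteria (4.62% of all genes tested) and the median was 0.09. At an unadjusted p below 0.05, 2 of these were higher and 1 was lower (7.5%, against 11.6% of all genes tested). The 2 higher genes, also named after their values were seen, were DRAM1 and VPS39. Their log2 fold changes were 0.36 and 0.24, with unadjusted edgeR p-values of 0.018 and 0.041. BNIP3L, a mitophagy receptor named here after its values were seen, was at 157 and 162 CPM with vehicle and at 118 and 112 CPM with LY500307. The log2 fold change was -0.47 (SE 0.10, unadjusted p of 0.001, edgeR adjusted p of 0.422), which is within the limit of 0.5, and both LY500307 samples were well below the vehicle samples.

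Of the 41 lysosome and V-ATPase genes, all were tested and 3 met the criteria, all higher (7.32%, against 2.76% of all genes tested higher and 4.62% in either direction). At an unadjusted p below 0.05 there were 9, all higher (22.0%, against 6.09% of all genes tested higher and 11.6% in either direction). Estimates were positive for 35 of the 41, against 7233 of 14473 genes tested, with a median of 0.15. That median was 0.12 with LY500307 sample 1 alone and 0.23 with sample 2 alone, each against both vehicle samples. ATP6V0B, a subunit of the proton pump that acidifies the lysosome, was at 24.0 and 25.7 CPM with vehicle and at 32.1 and 62.4 CPM with LY500307, a log2 fold change of 0.93 (SE 0.27, edgeR adjusted p of 0.422). Most of that difference came from LY500307 sample 2. ATP6AP1, an accessory subunit of the same pump, was at 94.99 and 100.2 CPM with vehicle and at 122 and 157 CPM with LY500307 (log2 fold change 0.51, SE 0.13, edgeR adjusted p of 0.422). MCOLN1, the lysosomal calcium channel, was at 19.2 and 17.4 CPM with vehicle and at 25.1 and 26.6 CPM with LY500307. Its samples of a group lay close together, and its log2 fold change of 0.50 (SE 0.13, edgeR adjusted p of 0.422) was just past the limit. Exonic GC content was 56.2%, 56.1% and 59.9% for ATP6V0B, ATP6AP1 and MCOLN1. For SESN2, CASTOR1 and LAMTOR4 it was 59.6%, 61.3% and 57.0%, and for BNIP3L 39.1%. The median over all genes tested was 48.0%. No values with the GC correction are given for these genes, and the part of base composition in their changes was not tested.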

How the data were processed

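RNA of 2 vehicle and 2 LY500307 samples was sequenced as 50 nt single ends. Per the labels and processing notes, the authors used TopHat2 2.0.8b (hg19) for alignment and HTSeq for counting, and the deposited values are raw counts by gene symbol with no scaling. The labels describe total RNA libraries and the methods stranded mRNA libraries. Reads on no gene or on several genes were left out of library sizes. Depth was 28841701 to 34943882 gene reads per sample, which limits precision mainly for genes near 100 reads.

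Differences were tested with edgeR 4.0.16 under R 4.3.3 (TMM, filterByExpr, quasi-likelihood test, Benjamini-Hochberg adjustment over all 14473 genes). The test moderates the spread of each gene towards that of all genes tested. The median of residual and prior degrees of freedom together was 7.90. The SE is the absolute log2 fold change divided by the square root of F. The criteria (unadjusted p below 0.05, absolute log2 fold change above 0.5) follow the study. Exonic length and GC content came from GENCODE on GRCh37, to which 91.8% of the 23228 symbols were matched, 2175 by an older symbol. The GC correction removes, sample by sample, a loess trend of log2 CPM against GC content (span 0.3, prior count 2), and genes without a match were left uncorrected. Promoters came from RefSeq (GRCh38.p14). Scripts were tested on simulated data.

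The 49 genes and the other lists were chosen with earlier results of these data known. Genes described in full are those meeting the criteria, the 12 with the smallest p, and ULK1, SQSTM1, MAP1LC3B, BECN1, ATG5, ATG7, MTOR and DEPTOR, and from each other list up to 4 that met the criteria. Alternatives were DESeq2 1.42.0, its size factors, library totals, other filters, the replicate number as a block, the GC correction and leaving out each sample. Replicate numbers come from the labels and were not taken to pair samples.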

Additional observations from a re-analysis of the deposited data

Results flagged for a closer look

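Reads that fell on more than 1 gene entered no comparison. They were 0.694% of the reads of LY500307 sample 1 (Wilson 95% interval 0.692 to 0.697) and 0.710% of those of LY500307 sample 2 (0.708 to 0.713), above the 0.674% and 0.661% of the vehicle samples. These intervals cover counting error only, the difference was not tested over samples, and its part in the counts of genes that overlap a neighbour was not tested.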

How the results depend on the processing

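The log2 fold change of MAP1LC3A was 0.69 to 1.19 over the 13 alternatives. It met the criteria in each alternative that kept all 4 samples. These include the crossed block described below, which was chosen after seeing the data. Its adjusted p was 0.131 with DESeq2, against 0.422 in the main edgeR fit. The 2 LY500307 samples decided most counts. With 1 sample left out, the lone sample was assumed to vary like the other group. The genes meeting the criteria then ranged from 352 (without LY500307 sample 2) to 1987 (without LY500307 sample 1), and those with an adjusted p below 0.05, which were 0 in the full comparison (1678 at an unadjusted p below 0.05), from 0 to 5002. Of the 49 genes, 1 to 6 met the criteria (1 to 5 higher, 0 to 1 lower), and 1 to 25 had an unadjusted p below 0.05, the most without LY500307 sample 1, where 6 of the 49 (12.2%) met the criteria, against 13.3% of all genes. Without LY500307 sample 1, ATG4D, ATG7, NPRL2, RRAGA and RHEB joined MAP1LC3A. The log2 fold change of ATG7 ranged from -0.18 to 0.58 and that of BECN1 from -0.22 to 0.070. Genes with an adjusted p below 0.05 were 16 with DESeq2, 1 with the replicate block, 3 with the block and GC correction and 381 with a crossed block. Of the 49 genes, 3 had an unadjusted p below 0.05 with the block (6.12%, against 11.2% of all genes) and 2 with the block and GC correction (4.08% against 9.46%). The log2 fold change of MAP1LC3B turned to -0.036 (GC correction) and -0.035 (block and GC correction). The causes were not tested.

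Deviations of samples with the same replicate number correlated at -0.07 over 14473 genes. With 2 samples per group, this value cannot show whether the numbers pair the samples. The crossed block, chosen after seeing the data because the correlation was -0.23 over the 7236 more abundant genes, gave 781 genes meeting the criteria, 7 of the 49 genes at an unadjusted p below 0.05 (14.3%, against 16.5% of all genes) and 1 of the 49, MAP1LC3A, at an adjusted p below 0.05. Of all genes meeting the criteria, 59.8% were higher, against 69.7% with library totals alone, which shifted the median of all genes by 0.04, and 50.7% with the block and GC correction. Depth limits DEPTOR and MAP1LC3A most, and 2 samples per group limit every value.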
